A study of Mus musculus with 41 samples.

Results

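Hardy fraction C of the mouse B cell lineage was compared with Hardy fraction B on 12 of the series' 41 arrays, the 5 whose titles name fraction C and the 7 whose titles name fraction B. Each is a single-colour Affymetrix array of RNA from 1 sample of flow-sorted cells of C57BL/6 mice with wild-type Pax5 and no treatment, and the whole series covers 7 populations. The labels give no age, sex, tissue or sorting gate, and they do not say whether samples came from separate animals, so p-values here reflect the spread among these samples alone, and that spread may be technical. The values are the submitters' MAS5 signals, a linear probe-set intensity, and they were analysed as log2(signal + 32). Every difference is C minus B on that scale, and for genes with low signals it makes a change look smaller than it was.

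As background, fraction B holds pro-B cells, which join the heavy-chain gene segments, and fraction C holds cells at the passage from pro-B to pre-B. A heavy chain that pairs with the surrogate light chain forms the pre-B cell receptor, and this receptor, together with interleukin 7, drives a burst of divisions. The cells then leave the cycle, become small pre-B cells (fraction D) and rearrange the light-chain genes. In the Hardy scheme the step from B to C is gated by the surface peptidase BP-1, the product of Enpep. The labels name fraction C only by its letter; large pre-B is a name used in the field for its dividing cells, and the letter is used here. Precision is limited throughout by the number of arrays.

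Every array had been scaled so that its mean, once the lowest 2% and the highest 2% of probe sets were set aside, was 499 to 500, but the shapes of the distributions differed. The array median was 101 to 153 in fraction C and 69.7 to 92.7 in fraction B, whereas the 99th percentile was 8250 to 9730 in fraction C and 11700 to 16700 in fraction B. The 3' to 5' signal ratio of actin, a measure of RNA and amplification quality, was 1.23 ± 0.0732 in fraction C and 1.07 ± 0.064 in fraction B (SD, n = 5 and 7, exact two-sided permutation p = 0.00505, adjusted over 2 ratios 0.0101, smallest p possible 0.00126). That of Gapdh was 4.95 ± 1.14 in fraction C and 7.52 ± 2.33 in fraction B (exact permutation p = 0.053, adjusted 0.053). The mean correlation of an array with the others of its population was 0.945 to 0.954 in fraction C and 0.888 to 0.939 in fraction B, where B arrays 1, 4 and 5 were lowest. On 4 of 5 C arrays Xist, expressed in female cells, was above 1000 and the Y-linked Eif2s3y below it, and C array 2 had the reverse. In fraction B, 2 arrays (1 and 4) had Xist alone above 1000, 2 had Eif2s3y alone and 3 had both. The part of these differences in the results was not tested, other than by the fits without B arrays 1 and 4 and with the Y-linked level as a covariate that are given with the counts.

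The step from fraction B to fraction C was wide: 22 of 26 tested neutrophil granule genes, 15 of 16 interferon-response genes and 5 of 8 MHC class II genes rose, and 13 of 24 ribosome biogenesis genes, 18 of 38 S phase genes, 14 of 39 G2 and mitosis genes and 7 of 16 immediate early genes fell. The S phase falls numbered 5 after quantile normalization, and of the G2 and mitosis genes 1 fell in C replicates 1 and 2 alone and 29 in replicates 3 to 5 alone. Of 10091 genes tested, 1566 rose (15.5%) and 1156 fell (11.5%), 27.0% in all, in limma at a Benjamini-Hochberg adjusted p under 0.05. A gene was tested if it was at or above its array's median on at least 5 of the 12 arrays. The 5 C arrays alone could meet this, so counts of rises, also within lists, depend on the filter. With no filter 1609 genes rose and 1024 fell, and with a filter at the 75th percentile 859 and 1149. A difference of at least 2-fold was reached by 888 of the genes that rose and 306 of those that fell. On 1482 genes the C and B arrays did not overlap, and 1437 of these were called, 796 up (7.89% of genes tested) and 641 down (6.35%). The median difference over all genes was 0.16, and the medians of gene lists below are to be read against it. B arrays 1 and 4 were, with array 5, those least correlated with the rest of fraction B. Without arrays 1 and 4, 1975 genes rose and 1535 fell, and without array 5 alone 1532 rose and 1141 fell.

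C replicates 1 and 2 and C replicates 3 to 5 were each set against the same 7 B arrays in a fit with 3 means. C replicates 1 and 2 gave 328 genes up (3.25%) and 351 down (3.48%), 6.73% in all, and replicates 3 to 5 gave 1429 up (14.2%) and 1229 down (12.2%), 26.3% in all. The sets differ in size, the median standard error being 0.35 for replicates 1 and 2 and 0.30 for replicates 3 to 5, so these counts were not set against each other. The count for replicates 1 and 2 was 13 without C array 1 and 49 without C array 2, fits in which the set holds 1 array whose spread is taken from the other arrays. It was 995 without B array 1 and 1887 without B arrays 1 and 4, and it was 1139 with the Y-linked level as a covariate. That for replicates 3 to 5 was 1536, 1644 and 1416 without C arrays 3, 4 and 5, and the count of genes up over all C arrays was 976 without C array 5. As both sets share the B arrays, their values for the same genes are given side by side and were not correlated or counted in common.

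The scaling set the balance of rises and falls. Under the submitters' scaling the median difference ran from 0.43 in the lowest of 10 groups of genes by mean signal to -0.54 in the highest. After quantile normalization of the 12 arrays it ran from 0.05 to -0.08, and the median over all genes was 0.00. Quantile normalization left 1070 genes up (10.6%) and 954 down (9.45%), 20.1% in all, a share of 52.9% up against 57.5% before. With it, C replicates 1 and 2 gave 263 up (2.61%) and 224 down (2.22%), 4.83% in all, and replicates 3 to 5 gave 1117 up (11.1%) and 1245 down (12.3%), 23.4% in all. Centring each array on its median turned the balance, with 895 genes up (8.87%) and 1846 down (18.3%), 27.2% in all, or 32.7% up. For the genes described below, the quantile-normalized difference is given where it ended a call or moved a called difference by over 1.5 times.

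**Figure D1:**
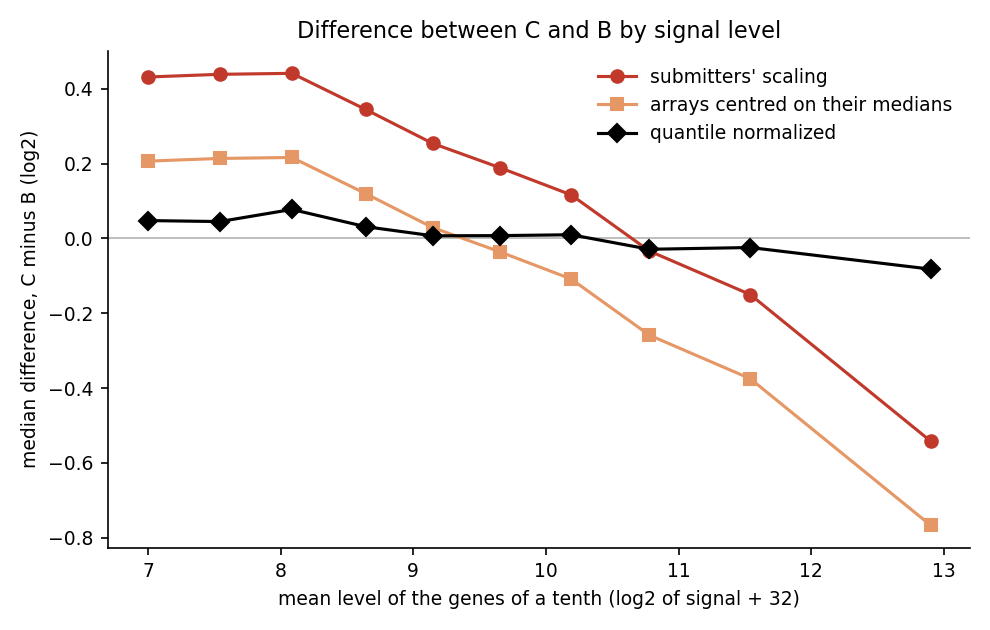
Median difference between fraction C and fraction B (log2, y axis) for 10 groups of tested genes ordered by mean level (log2 of signal + 32, x axis), under 3 scalings. Under the submitters' scaling the line falls from 0.43 to -0.54; after quantile normalization it stays between 0.08 and -0.08.

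The genes of the sorting scheme were checked first. Enpep had signals of 1178, 1231, 2093, 2849 and 2727 on C arrays 1 to 5, against a lowest, median and highest of 10.2, 54.7 and 193 on the B arrays. No array overlapped, and Enpep was 4.45 ± 0.39 higher in fraction C (limma adjusted p = 1.71e-06; 4.35 after quantile normalization). It codes for BP-1 itself, so this bears on the label and is no finding; its signal was 196 to 492 in fraction D, 18.1 to 117 in the common lymphoid progenitor and 1.9 to 57.2 in fraction A. C arrays 1 and 2 had the lowest Enpep signals of fraction C, at 1178 and 1231.

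Of 11 tested sorting markers, 3 rose and 3 fell, with a median of -0.05 that ran from -0.13 to -0.00275 when single arrays were left out. Il2ra had signals of 763, 766, 959, 913 and 1267 on C arrays 1 to 5, against a lowest, median and highest of 73.2, 129 and 617 on the B arrays. Il2ra codes for CD25, a marker of pre-B cells; every C array was above every B array, B arrays 1 and 4 being the highest of fraction B, and the difference was 2.13 ± 0.45 (limma adjusted p = 0.00233). Cd2, an adhesion receptor that appears on pre-B cells, rose by 1.20, and Flt3, the cytokine receptor of early progenitors, fell with a difference of -1.71; the C and B arrays overlapped for both. The Cd2 call was lost without C array 4 or 5 (adjusted p = 0.0527 and 0.0614) and after quantile normalization (0.97, adjusted p = 0.0633), and that of Flt3 was lost without any 1 of 10 arrays, with an adjusted p of up to 0.14. Cd24a had signals of 20641, 16769, 16889, 21318 and 16606 on C arrays 1 to 5, against a lowest, median and highest of 24879, 33200.0 and 57046 on the B arrays. Cd24a (heat-stable antigen) was lower by that scaling on every C array, at -0.97 ± 0.19 (limma adjusted p = 0.00153), but -0.01 after quantile normalization. Spn (CD43) differed by -0.38 and turned to 0.19 (adjusted p = 0.259) under quantile normalization, and its call was lost without C array 3 or 5 (adjusted p = 0.062 and 0.0757). The other 5 markers did not pass: Kit, the stem cell factor receptor, at -0.53 (95% interval -1.82 to 0.75), Cd93 at -0.25, Il7r at -0.04, Ptprc (CD45, of which B220 is a form) at -0.05 and Ly6d at 0.48. Of 5 tested probe sets of Cd93, 1 rose and 1 fell. After quantile normalization Il7r, the interleukin 7 receptor chain, was 0.46 higher (adjusted p = 0.0117).

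**Figure D2:**
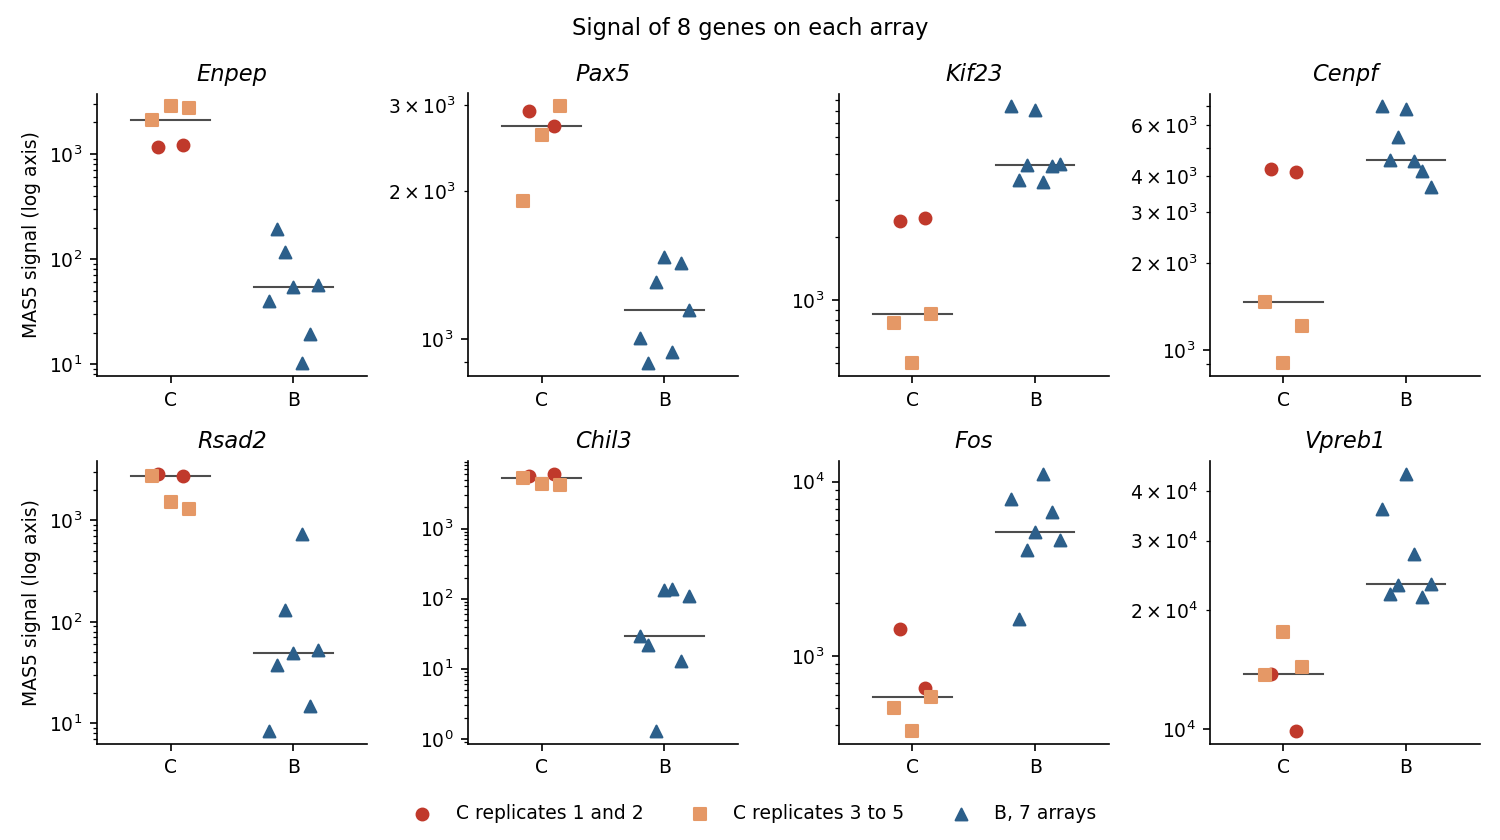
MAS5 signal (log axis) of 8 genes on each array, with fraction C left of fraction B and the median of each population as a line; circles are C replicates 1 and 2, squares C replicates 3 to 5 and triangles the 7 B arrays. The populations do not overlap for Enpep, Pax5, Kif23, Rsad2, Chil3, Fos or Vpreb1, and for Cenpf C replicates 1 and 2 lie among the B arrays.

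The chains of the pre-B cell receptor did not move together. Of 6 tested, 1 rose and 1 fell (16.7% each, near the 15.5% and 11.5% of all genes), with a median of -0.03 (-0.11 to 0.04 with single arrays left out). After quantile normalization 3 rose and 0 fell, and the median was 0.56. Vpreb1 had signals of 13823, 9897, 13725, 17637 and 14322 on C arrays 1 to 5, against a lowest, median and highest of 21576, 23270.0 and 44294 on the B arrays. Vpreb1, the V-like part of the surrogate light chain, was lower on every C array, at -1.0 ± 0.19 on the log2 scale (limma adjusted p = 0.00106), and at -0.18 (adjusted p = 0.299) after quantile normalization. Vpreb3 had signals of 3086, 2971, 3038, 4435 and 3848 on C arrays 1 to 5, against a lowest, median and highest of 1021, 2323 and 2698 on the B arrays. Vpreb3, which binds newly made immunoglobulin chains inside the cell, was higher on every C array, at 0.88 ± 0.25 (limma adjusted p = 0.0146) and 1.01 after quantile normalization. The call ended under median centring (0.66, adjusted p = 0.0627), with the Y-linked covariate (0.70, adjusted p = 0.069) and in a fit of all 41 arrays (adjusted p = 0.0815). Igll1, the other component of the surrogate light chain, had 10578 to 15377 in fraction C and 9280.3 to 14095 in fraction B, and differed by 0.05 (95% interval -0.25 to 0.35), but by 0.74 (adjusted p = 0.0051) after quantile normalization. The signal chains Cd79a and Cd79b differed by 0.36 and -0.17 without passing; Cd79a passed at 0.73 (adjusted p = 0.0236) after quantile normalization.

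The heavy chain Ighm gave no single answer, because its probe sets disagreed. The probe set with the highest signals had 9284, 7268, 6025, 8755 and 6033 on C arrays 1 to 5 and 3843 to 16659.6 on the B arrays, a difference of -0.12 (limma adjusted p = 0.822). Of its 5 tested probe sets 3 passed, all upward. The one with the lowest p (adjusted p = 4.02e-05) read 3582, 660, 954, 171 and 410 on C arrays 1 to 5 and 5.2 to 28.4 on the B arrays. Another read 2313, 2369 and 1044 on C arrays 1, 3 and 4, 32.3 and 58.2 on C arrays 2 and 5, and 5.1 to 107.7 on the B arrays. A probe set below the filter followed the same arrays, with 4105, 3360 and 1502 on C arrays 1, 3 and 4 against 47.2 and 9.1 on C arrays 2 and 5 and 2.8 to 65 on the B arrays. Averaged over its probe sets, Ighm was 1.89 higher in fraction C (adjusted p = 0.00653).

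Of 24 tested genes of the signal path below the receptor, 4 rose (16.7%, near the 15.5% of all genes) and 0 fell, all 4 without overlap, with a median of 0.32 (0.20 after quantile normalization, 6 up). Cd72 had signals of 6644, 6370.4, 6987, 7667 and 7675 on C arrays 1 to 5, against a lowest, median and highest of 1317, 2056 and 5884 on the B arrays. Cd72, an inhibitory coreceptor of B cells, was higher on every C array, at 1.50 ± 0.32 (limma adjusted p = 0.0028) and 1.88 after quantile normalization. The others were Lat, an adaptor best known in T cells, at 1.20, the kinase subunit Pik3cd at 0.90 and the exchange factor Vav1 at 0.79. The mean of its probe sets ended the call of Pik3cd (0.45, adjusted p = 0.0598) and median centring that of Vav1 (0.57, adjusted p = 0.0595). Of 18 genes tied to light-chain opening and pre-B maturation, 7 rose and 1 fell, with a median of 0.54 (0.49 for C replicates 1 and 2, 0.56 for replicates 3 to 5). Among them were Il2ra and Irf8. Irf8 had signals of 3996, 2841, 2689, 2139 and 3407 on C arrays 1 to 5, against a lowest, median and highest of 714, 1244 and 1963 on the B arrays. Irf8, a factor that acts with Irf4 at the light-chain loci, rose without overlap by 1.28 (limma adjusted p = 0.000568). Of 15 recombination and end-joining genes 0 rose and 3 fell, namely Trp53bp1, which holds broken DNA ends, at -1.08 (-0.50 after quantile normalization, though 1 of its 6 probe sets passed and their mean was -0.07, adjusted p = 0.843), the recombinase cofactor Hmgb2 at -0.86 and the terminal transferase Dntt at -0.67. Quantile normalization ended the calls of Hmgb2 (-0.18) and Dntt (0.07), both abundant transcripts.

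Of 34 tested B lineage transcription factors, 9 rose and 4 fell (26.5% and 11.8%, against 15.5% and 11.5% of all genes). Their median was 0.11 (0.02 for C replicates 1 and 2, 0.25 for replicates 3 to 5). The median was 0.06 and 0.18 without B arrays 4 and 7, and 0.20 and 0.05 without C arrays 2 and 5; quantile normalization gave 10 up, 1 down and a median of 0.31. Pax5 had signals of 2921, 2724, 1914, 2608 and 2981 on C arrays 1 to 5, against a lowest, median and highest of 892, 1147 and 1473 on the B arrays. Pax5, which fixes B cell identity, was higher on every C array, at 1.15 ± 0.18 (limma adjusted p = 0.000323) and 1.18 after quantile normalization, with 1.27 for C replicates 1 and 2 and 1.07 for replicates 3 to 5. Tcf3 had signals of 3789, 3150.4, 2893, 2529 and 4122 on C arrays 1 to 5, against a lowest, median and highest of 859, 1135 and 2226 on the B arrays. Tcf3, which codes for the E proteins E12 and E47, rose without overlap by 1.39 ± 0.23 (limma adjusted p = 0.000484), again alike in C replicates 1 and 2 (1.48) and 3 to 5 (1.33). Only 1 of 2 tested probe sets of Pax5 and 1 of 3 of Tcf3 passed, and the mean of the probe sets ended both calls, at 0.51, adjusted p = 0.0821 for Pax5 and 0.72, adjusted p = 0.0776 for Tcf3. Lmo4, a LIM-domain adaptor, rose by 1.30 and Irf8 as above. Among the falls was Klf2, a factor of quiescent lymphocytes, with 832, 440.0, 497, 694 and 1121 on C arrays 1 to 5 and 349, 2416 and 4467 as lowest, median and highest of fraction B. The Klf2 arrays overlapped, the difference was -1.40, and the call was lost without any 1 of 7 arrays (adjusted p of up to 0.0841) and without B arrays 1 and 4. Myb (-0.70) and Pou2af1 (-0.61) fell under the submitters' scaling, but gave 0.04 and 0.02 after quantile normalization. Ebf1, which acts upstream of Pax5, was at -0.43 (-0.16, adjusted p = 0.541 after quantile normalization); of its 5 probe sets 2 rose and 1 fell, their mean was 0.38 higher (adjusted p = 0.115), and the call was lost without any 1 of 9 arrays.

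Of 13 tested genes of early progenitors 0 rose and 2 fell (15.4%, near the 11.5% of all genes). Their median was -0.14 (-0.46 for C replicates 1 and 2, 0.02 for replicates 3 to 5, -0.51 after quantile normalization). The sign of that median rested on single arrays, since it was 0.04 without B array 5 and -0.36 without C array 3. Of 18 genes of the interleukin 7 and STAT5 path, 3 rose (16.7%, near the 15.5% of all genes) and 1 fell, with a median of 0.23, or 0.11 without B array 1. Socs2 had signals of 1579.8, 1268, 1054, 3763 and 1936 on C arrays 1 to 5, against a lowest, median and highest of 139.9, 856 and 1265 on the B arrays. Socs2, a STAT5 target that dampens cytokine signals, rose by 1.45, with C array 4 the highest; without that array the adjusted p was 0.0642. Cish, a target of the same kind, rose by 1.21 and Mycn by 1.02. The Cish call ended without C array 4 or 5 (adjusted p = 0.0516 and 0.051), and that of Mycn without B array 3 (0.0545). Mycn met the filter on the fewest arrays it allows, so without some other single arrays it was not tested at all. Quantile normalization ended both, at 0.82, adjusted p = 0.101 for Cish and 0.67, adjusted p = 0.161 for Mycn. Pim3 had signals of 2955, 2794, 2418, 2564 and 2055 on C arrays 1 to 5, against a lowest, median and highest of 3187, 5112 and 11461 on the B arrays. Pim3, a survival kinase, was lower on every C array, at -1.03 ± 0.24 (limma adjusted p = 0.00459), but the mean of its probe sets gave 0.08 (adjusted p = 0.801).

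Of 20 genes of the PI3K, Akt and Foxo path 6 rose and 2 fell (30% and 10%, against 15.5% and 11.5% of all genes). Their median was 0.43 (0.21 for C replicates 1 and 2, 0.60 for replicates 3 to 5, 0.38 after quantile normalization, 0.26 without B array 4). Pik3cg had signals of 2297, 2061, 2673, 2111 and 2972 on C arrays 1 to 5, against a lowest, median and highest of 871, 1232 and 1512 on the B arrays. Pik3cg, a catalytic subunit, was higher on every C array by 0.98 (limma adjusted p = 0.000882). Its other probe set, at 0.23, did not pass (adjusted p = 0.433 in a limma test of each probe set). Pik3ip1, an inhibitor of the kinase, rose by 1.44, Akt2 by 1.21 and Pik3cd by 0.90. The other probe set of Akt2, at 0.56, did not pass (adjusted p = 0.105 in the same test). Foxp1, a forkhead factor needed at the pro-B stage in mice, was lower on every C array, at -0.88, with -0.53, adjusted p = 0.0513 after quantile normalization; of its 8 probe sets 2 passed, and their mean was 0.11.

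Genes of antigen presentation, which B cells express more strongly as they mature, rose. Of 8 tested MHC class II genes 5 rose and 0 fell, with medians of 1.09 over all C arrays, 1.01 for C replicates 1 and 2, 1.09 for replicates 3 to 5 and 1.06 after quantile normalization. In replicates 1 and 2 alone 0 of the 8 passed, and in replicates 3 to 5 alone 5 did. H2-Oa had signals of 606, 513, 719, 1000.2 and 1016 on C arrays 1 to 5, against a lowest, median and highest of 141, 271 and 373 on the B arrays. H2-Oa, a chain of a modulator of peptide loading, rose without overlap by 1.44 (limma adjusted p = 0.00106). H2-Eb1, a class II beta chain, rose by 2.03 with overlapping arrays (1009.6, 724, 466, 1071 and 1294 on C arrays 1 to 5, 39.9 to 787 on B arrays), as did the invariant chain Cd74, by 1.65 (1.10, adjusted p = 0.054 with the Y-linked covariate). Dendritic cells and monocytes also express these genes, their markers are given below, and their part in the result was not tested. Of 16 genes of mature B cells 4 rose and 1 fell (median 0.45, or 0.26 without B array 5), among them the costimulatory receptor Cd40 at 1.23 (adjusted p = 0.0588 in a fit of all 41 arrays) and Tnfrsf13b (TACI) at 0.77. Of 18 homing genes 7 rose and 2 fell (38.9% and 11.1%, against 15.5% and 11.5% of all genes), with a median of 0.43. Itgb2 had signals of 3512, 3191, 2784, 2598 and 2509.6 on C arrays 1 to 5, against a lowest, median and highest of 822, 1266 and 1608 on the B arrays. Itgb2, the shared beta chain of leukocyte integrins and also abundant in myeloid cells, rose without overlap by 1.27 (limma adjusted p = 0.000209), while its lymphoid partner Itgal was at -0.69, with 1 probe set up and 1 down.

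Heyl, a repressor of the Notch-linked Hes and Hey family, was among the 10 largest rises. Heyl had signals of 779, 557, 2317, 2941 and 2429 on C arrays 1 to 5, against a lowest, median and highest of 8.5, 77.6 and 122 on the B arrays. The difference was 3.96 ± 0.42 (limma adjusted p = 1.35e-05; 3.79 after quantile normalization), C arrays 1 and 2 being the lowest of fraction C, and both its probe sets passed. In the other populations its signal was 12 to 151 in the common lymphoid progenitor, 9.7 to 73.6 in fraction A, 75 to 130.0 in D, 36.3 to 82.8 in E and 1.4 to 39.8 in F. The list of Notch genes did not include Heyl. Of its 7 tested members, 1 rose, Il2ra, and 1 fell (14.3% each, near the 15.5% and 11.5% of all genes). Their median was 0.01 (-0.03 to 0.16 with single arrays left out). The one that fell was Nrarp, a feedback inhibitor of Notch, with 616, 627, 463, 506 and 304 on C arrays 1 to 5 against 817 to 1327 on B arrays, a difference of -1.11 ± 0.21 (limma adjusted p = 0.0011). Its other probe set was at 0.40, and the mean of both was -0.36, adjusted p = 0.216.

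Genes of cell division separated C replicates 1 and 2 from replicates 3 to 5. Many genes of G2 and mitosis carry the cell cycle homology region, letters TTTGAA near the start site, at which repressor complexes are known to keep them low outside G2 and mitosis. Promoter windows of 3 members that fell and hold these letters are shown as examples of the motif. They run from 250 bases before to 50 after the start site in RefSeq (GRCm38.p6), 5′ to 3′ along the gene, with each match to the motif on either strand in capitals. Kif23 is at chr9:61946750-61947049, Cenpf at chr1:189688037-189688336 and Cdca8 at chr4:124936868-124937167, all on the minus strand.
Kif23: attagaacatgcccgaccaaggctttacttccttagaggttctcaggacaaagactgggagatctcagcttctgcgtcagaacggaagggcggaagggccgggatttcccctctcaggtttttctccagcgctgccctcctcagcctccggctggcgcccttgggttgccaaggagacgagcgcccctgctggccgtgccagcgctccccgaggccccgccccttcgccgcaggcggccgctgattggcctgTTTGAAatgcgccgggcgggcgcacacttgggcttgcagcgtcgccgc
Cenpf: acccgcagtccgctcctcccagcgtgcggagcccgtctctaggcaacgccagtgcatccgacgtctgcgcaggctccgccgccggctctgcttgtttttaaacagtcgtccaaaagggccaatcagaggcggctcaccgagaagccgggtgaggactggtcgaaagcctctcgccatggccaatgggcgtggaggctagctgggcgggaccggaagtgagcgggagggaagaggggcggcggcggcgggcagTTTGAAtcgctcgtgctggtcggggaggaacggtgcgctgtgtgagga
Cdca8: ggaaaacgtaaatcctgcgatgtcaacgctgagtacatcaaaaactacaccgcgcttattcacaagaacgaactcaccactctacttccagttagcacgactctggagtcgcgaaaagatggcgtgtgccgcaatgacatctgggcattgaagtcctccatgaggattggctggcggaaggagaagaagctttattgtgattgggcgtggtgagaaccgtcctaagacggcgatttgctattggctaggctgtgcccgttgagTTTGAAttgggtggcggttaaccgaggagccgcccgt

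Of the 39 tested members, 33 had a promoter in the RefSeq table. The motif TTTGAA, or its complement TTCAAA, was in 24 of these (72.7%), against 5466 of all 27025 promoters (20.2%). In the last 100 bases of the window it was in 21 (63.6%), against 5.72% of all. In Kif23 and Cenpf it began 2 bases after the start site and in Cdca8 13 bases after it. Cenpe, which also fell, had no match in its window. A match is a description of these letters, not a bound site.

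Of the 39 tested G2 and mitosis genes, 0 rose and 14 fell against fraction B, with a median of -0.58. In C replicates 1 and 2 the median was 0.20, with 1 up and 1 down, and in C replicates 3 to 5 it was -1.11, with 0 up and 29 down. Quantile normalization gave 0.29 and -1.08 for these sets and 12 falls over all C arrays. On 38 of the 39 genes the mean of replicates 1 and 2 was above that of replicates 3 to 5, a description, since this division of fraction C was chosen with these data known. Kif23 had signals of 2388, 2458, 774, 499 and 859.5 on C arrays 1 to 5, against a lowest, median and highest of 3668, 4418 and 8422 on the B arrays. Kif23, a kinesin of the central spindle, was lower on every C array, at -2.10 ± 0.35 (limma adjusted p = 0.0005; -2.05 after quantile normalization, -1.22 for the mean of its probe sets); B arrays 1 and 4 were highest, and the difference was -1.04 for C replicates 1 and 2 and -2.80 for replicates 3 to 5. Cenpf had signals of 4220.1, 4128, 1468, 903 and 1215 on C arrays 1 to 5, against a lowest, median and highest of 3667, 4539 and 6953 on the B arrays. For Cenpf, a kinetochore protein, C arrays 1 and 2 lay among the B arrays and C arrays 3 to 5 below all of them (-1.35 ± 0.33, limma adjusted p = 0.00696; the mean of its probe sets was -0.72, adjusted p = 0.0631). The chromosomal passenger Cdca8 had 14264, 11457, 9739, 8368 and 7177 on C arrays 1 to 5 and 14882, 23450.0 and 49546 as lowest, median and highest of fraction B, a difference of -1.38 that became -0.66 after quantile normalization. Cenpe, a kinetochore motor, was at -1.26 (-0.71 and -1.62 for replicates 1 and 2 and 3 to 5). Its other probe set, at -0.26, did not pass (adjusted p = 0.56 in a limma test of each probe set). Without B arrays 1 and 4 the list median was -0.51, without C array 3, 4 or 5 it was -0.51, -0.38 and -0.44, and without C array 1 or 2 -0.75 and -0.82. In bulk samples fewer dividing cells and less of these transcripts per cell cannot be told apart.

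Of 38 S phase genes 1 rose and 18 fell, 11 of the falls without overlap, with a median of -0.47 (-0.17 for C replicates 1 and 2, -0.66 for replicates 3 to 5). After quantile normalization 5 fell, and the median was -0.25. Cdc6 had signals of 1748, 2399.9, 2090.4, 1573 and 2118 on C arrays 1 to 5, against a lowest, median and highest of 3519, 4233 and 4963 on the B arrays. Cdc6, which loads the replicative helicase, was lower on every C array by either scaling, at -1.08 ± 0.15 (limma adjusted p = 0.000125) and -0.99. Rrm2, a subunit of ribonucleotide reductase, was at -0.89 but -0.23 (adjusted p = 0.116) after quantile normalization, and the maintenance methylase Dnmt1 at -1.06 but -0.45 (adjusted p = 0.055). The 1 gene that rose was Cdc45, a helicase component, with 389, 429, 523, 428 and 342 on C arrays 1 to 5 and 170.3 to 251 on B arrays (0.83; 0.48 after quantile normalization, adjusted p = 0.129). Of 20 genes of the G1 machinery 0 rose and 6 fell, 7 after quantile normalization. Tfdp1 had signals of 4306, 5049, 3423, 2879 and 3033 on C arrays 1 to 5, against a lowest, median and highest of 7868, 9146 and 10542 on the B arrays. Tfdp1, the dimer partner of E2F factors, was lower on every C array, at -1.30 ± 0.15 (limma adjusted p = 2.47e-05; -1.02 after quantile normalization). The G1 kinases Cdk4 (-0.88, or -0.77 after quantile normalization) and Cdk6 (-0.81, or -0.48) fell as well, with Cdk4 at -0.40 in C replicates 1 and 2 and -1.20 in replicates 3 to 5. Of 16 cell cycle inhibitors 1 rose and 1 fell (6.25% each, against 15.5% and 11.5% of all genes). The one that fell was Cdkn1a (p21), with 886, 1243, 830.2, 1763 and 1428 on C arrays 1 to 5 against 1919 to 2944 on B arrays (-0.90, limma adjusted p = 0.00333, but 0.172 in a fit of all 41 arrays).

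**Figure D3:**
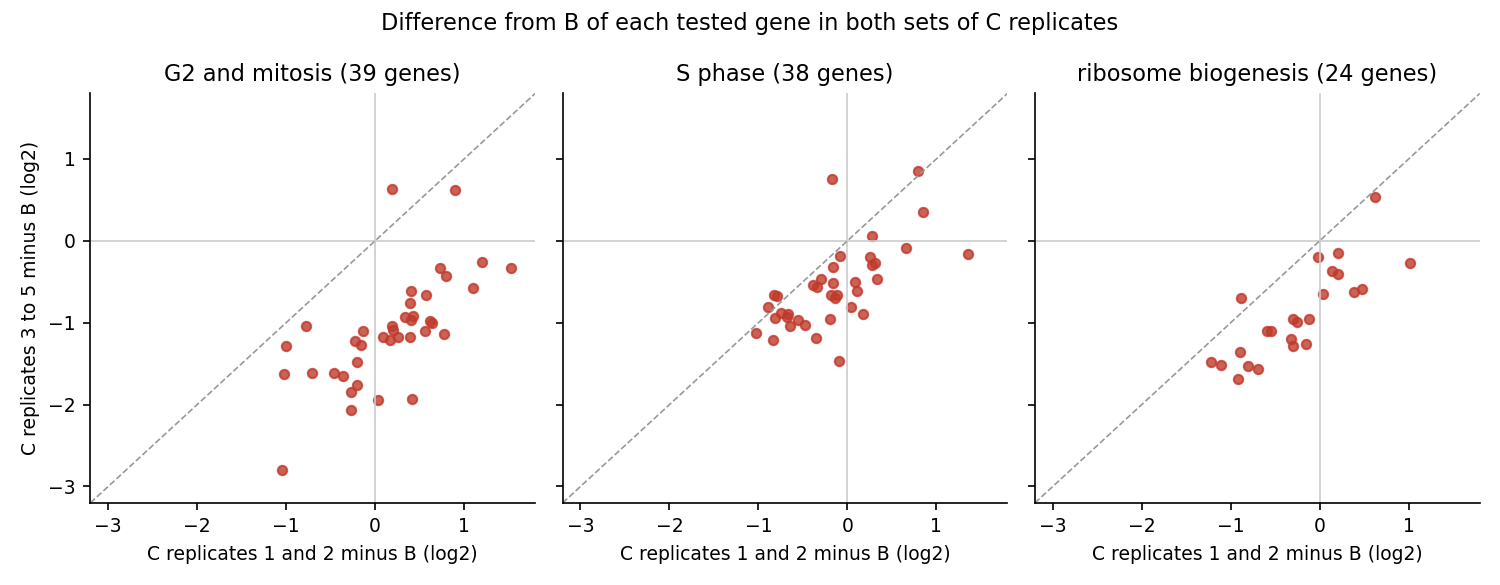
Difference from fraction B (log2) of every tested gene of 3 lists in C replicates 1 and 2 (x axis) and in C replicates 3 to 5 (y axis), with the line of equal difference dashed. On 38 of 39 G2 and mitosis genes, 33 of 38 S phase genes and 23 of 24 ribosome biogenesis genes the point lies below that line.

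Genes that build ribosomes and nucleotides fell under either scaling. Of 24 ribosome biogenesis genes 0 rose and 13 fell, 9 without overlap, with a median of -0.74, and quantile normalization also gave 13 falls and a median of -0.61. The median was -0.28 for C replicates 1 and 2 and -0.97 for replicates 3 to 5. Ncl had signals of 10567, 9767, 7203, 8183 and 7503 on C arrays 1 to 5, against a lowest, median and highest of 16888, 20400.0 and 28433 on the B arrays. Ncl (nucleolin), a main protein of the nucleolus, was lower on every C array, at -1.35 ± 0.15 (limma adjusted p = 2.10e-05; -0.73 after quantile normalization). Npm1 (nucleophosmin) was at -1.37 and -0.50 after quantile normalization, Dkc1, the pseudouridine synthase of small nucleolar particles, at -1.38 and -1.04, and Nop58, of the same family of particles, at -1.24 and -1.01.

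Of 26 genes of amino acid transport and nucleotide synthesis 1 rose and 10 fell, with a median of -0.60 (-0.13 and -0.88 for the replicate sets) and 10 falls after quantile normalization. Mthfd1 had signals of 3679, 3361, 1511, 1247 and 1017 on C arrays 1 to 5, against a lowest, median and highest of 5778, 7905 and 11908 on the B arrays. Mthfd1, a folate enzyme of purine and thymidylate synthesis, was lower on every C array, at -2.08 ± 0.30 (limma adjusted p = 0.000149), with -1.20 for C replicates 1 and 2 and -2.67 for replicates 3 to 5. Slc7a1, a carrier of arginine and lysine, was at -1.49, with another of its probe sets up and a mean of -0.25, adjusted p = 0.403, and Ctps, which makes CTP, at -1.20. The gene that rose was the glutamine carrier Slc1a5, by 0.56, with 4076, 3801, 4097, 3835 and 4185 on C arrays 1 to 5 against 2273 to 3158 on B arrays; the call ended under median centring (0.34, adjusted p = 0.0942) and in a fit of all 41 arrays (adjusted p = 0.316).

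Other falls of abundant transcripts turned on the scaling. Of 26 oxidative phosphorylation genes 11 fell (median -0.38), but 3 after quantile normalization (median -0.01). Cox5a, a subunit of cytochrome c oxidase, had a difference of -0.79 (-1.28 before), whereas Cox6c was -0.93 before and -0.21 after, and Atp5a1, of the ATP synthase, -0.83 before and 0.09 after. Of 13 heat shock genes 8 fell (median -0.66) and 3 after quantile normalization, with Hspa8 at -1.11 before and -0.26 after. Of 15 glycolysis genes 1 rose and 5 fell (3 after quantile normalization; median -0.39, or -0.25 without C array 5), the glucose carrier Slc2a1 at -0.88 before and -0.98 after and the platelet form of phosphofructokinase, Pfkp, rising by 1.03. Of 21 lipid synthesis genes 2 rose and 2 fell (9.52% each, against 15.5% and 11.5% of all genes). Scd1, the stearoyl-CoA desaturase, had 2478, 2354, 1593, 3045 and 3483 on C arrays 1 to 5 against 394 to 1663 on B arrays and rose by 1.44 (limma adjusted p = 0.00183).

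Interferon-stimulated genes rose in fraction C. Type I interferon acts through the factor ISGF3, which binds the interferon-stimulated response element, letters TTTCNNTTTC. The promoters of 2 of the genes that rose most are shown for that motif, with matches on either strand in capitals, over the same window of RefSeq (GRCm38.p6) as above. Rsad2 is at chr12:26456403-26456702 on the minus strand and Ifit1 at chr19:34640639-34640938 on the plus strand.
Rsad2: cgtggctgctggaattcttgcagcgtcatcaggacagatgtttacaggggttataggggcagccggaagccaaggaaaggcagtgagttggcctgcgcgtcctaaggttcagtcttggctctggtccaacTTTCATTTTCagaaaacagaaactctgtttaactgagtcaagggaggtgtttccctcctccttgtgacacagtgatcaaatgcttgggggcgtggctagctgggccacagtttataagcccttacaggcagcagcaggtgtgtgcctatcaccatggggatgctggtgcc
Ifit1: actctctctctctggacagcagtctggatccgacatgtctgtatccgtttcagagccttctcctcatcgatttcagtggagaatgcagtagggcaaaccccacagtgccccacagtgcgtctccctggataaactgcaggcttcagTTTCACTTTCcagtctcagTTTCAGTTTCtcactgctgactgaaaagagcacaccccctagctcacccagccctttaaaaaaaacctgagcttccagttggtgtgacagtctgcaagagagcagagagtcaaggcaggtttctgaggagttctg

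Of 16 tested interferon genes, 11 had a promoter in the table, and 6 of these (54.5%) held TTTCNNTTTC or its complement GAAANNGAAA, against 1079 of all 27025 promoters (3.99%). In the last 100 bases of the window it was in 1 (9.09%), against 1.15% of all. Of the 16, 15 rose and 0 fell, 11 of them without overlap, with medians of 1.45 over all C arrays, 1.10 for C replicates 1 and 2 (6 up) and 1.78 for replicates 3 to 5 (15 up). After quantile normalization 11 rose, and the median was 1.13. Rsad2 had signals of 2877, 2768, 2746, 1517 and 1284 on C arrays 1 to 5, against a lowest, median and highest of 8.4, 49.6 and 734 on the B arrays. Rsad2 (viperin), an antiviral enzyme, was higher on every C array, at 4.40 ± 0.56 (limma adjusted p = 6.04e-05), with B array 5 the highest of fraction B. Ifit1 had signals of 262, 188, 590.2, 710.1 and 294 on C arrays 1 to 5, against a lowest, median and highest of 2.8, 27.8 and 65.6 on the B arrays. Ifit1, which binds foreign RNA, rose without overlap by 2.79 (limma adjusted p = 7.52e-05), C arrays 3 and 4 being the highest. Ifi27l2a had signals of 3166, 1979.6, 5144, 4946 and 2533 on C arrays 1 to 5, against a lowest, median and highest of 301, 447 and 1069 on the B arrays. Ifi27l2a rose by 2.59 (limma adjusted p = 5.51e-05) and Mx1, an antiviral GTPase, by 2.16. Ifit1 and Mx1 (2.8 to 51.3 on B arrays) were below every B array's median (69.7 to 92.7), so the C arrays alone admitted both to the test. Rsad2 is also a gene of neutrophils and monocytes, whose markers rose with it as given below, and their part in its rise was not tested.

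Genes of neutrophil granules gave the largest rises of the comparison. Of 26 tested, 22 rose and 0 fell, 18 of them without overlap, with a median of 2.79 (3.23 for C replicates 1 and 2, 2.46 for replicates 3 to 5, 2.50 after quantile normalization). Chil3 had signals of 5636, 6032, 5348, 4392 and 4242 on C arrays 1 to 5, against a lowest, median and highest of 1.3, 29.4 and 136 on the B arrays. Chil3, a chitinase-like protein of myeloid cells, differed by 6.02 ± 0.39 (limma adjusted p = 1.67e-07), and no C array came near the B arrays. Camp had signals of 7181, 6628, 4805, 4672 and 4156 on C arrays 1 to 5, against a lowest, median and highest of 48.1, 87 and 518 on the B arrays. Camp, the precursor of an antimicrobial peptide of secondary granules, rose by 5.13 (limma adjusted p = 4.60e-07). S100a8, a calcium-binding protein abundant in neutrophils, had 20445, 15784, 16212, 16003 and 14468 on C arrays 1 to 5 and 343 to 2736 on B arrays (4.58). Lactoferrin (Ltf) rose by 5.29, lipocalin 2 (Lcn2) by 5.09 and Slfn4, a Schlafen gene of myeloid cells, by 4.65. The summed signal of the 27 genes named on the array was 72300 to 104000 in fraction C and 7410 to 31500 in fraction B, and 0 and 5 of them were below the array median on every array of C and B. In fraction D the sum was 22100 to 29400, in the common lymphoid progenitor 22200 to 76800 and in fraction A 27400 to 58000. It was 18900 to 136000 in fraction E, above every C array at its highest, and 11800 to 24800 in F. The median sum was highest in C (81900) and lowest in B (11800), with 30300 in E. Chil3 itself was 737 to 1193 in D, 341 to 2716 in the progenitor and 7.4 to 172 in fraction A. In E it was 539 to 7588, at its highest above every C array, and in F 373 to 1292. Whether the transcripts came from other cells in the sorted samples was not tested.

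**Figure D4:**
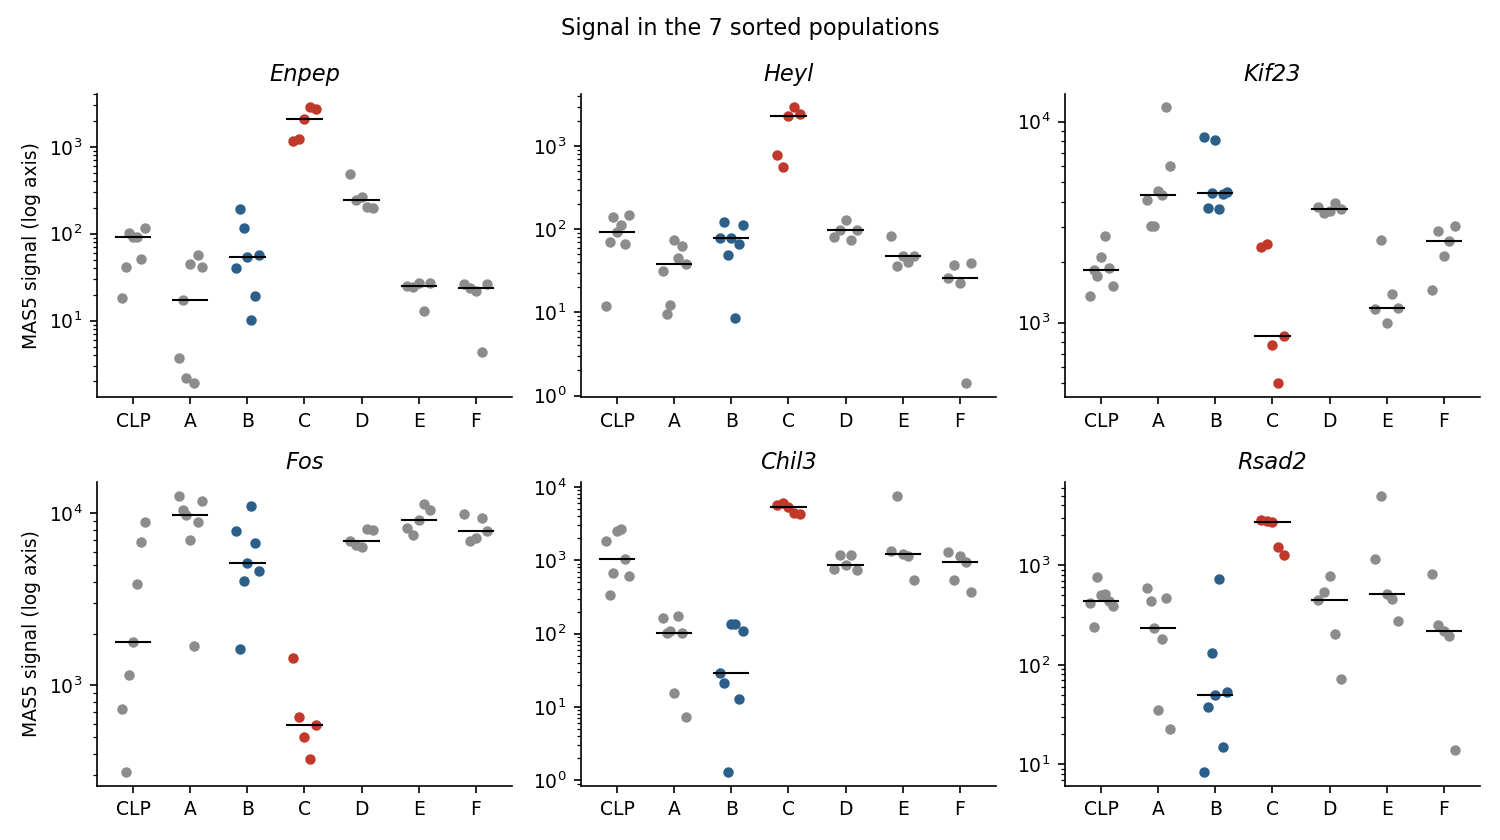
MAS5 signal (log axis) of 6 genes on all 41 arrays, by population along the lineage (CLP, common lymphoid progenitor; A to F, Hardy fractions), with the median as a line. Enpep, Heyl, Chil3 and Rsad2 have their highest medians in fraction C and Kif23 and Fos their lowest.

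Markers of other blood cells were counted in the same way, over the members that passed the filter, which the C arrays alone could meet. Of 14 monocyte and macrophage markers 8 rose and 0 fell (median 1.62), with summed signals of 16500 to 25500 in fraction C and 4990 to 18000 in fraction B; 8 and 5 of the 22 named were below the array median throughout. Mpeg1 had signals of 3845, 1698, 979, 1293 and 1818 on C arrays 1 to 5, against a lowest, median and highest of 51.9, 217 and 378 on the B arrays. Mpeg1 (perforin-2 of macrophages) rose by 3.07 (limma adjusted p = 0.000117) and Cybb, of the phagocyte oxidase, by 2.24. Of 13 erythroid markers 4 rose and 1 fell, with a median of 0.51 (1.25 for C replicates 1 and 2, 0.37 for replicates 3 to 5) and sums of 13500 to 24400 in fraction C and 10100 to 27000 in fraction B. The erythroid median was 0.24, 0.89 and 0.77 without B arrays 1, 5 and 6. Slc4a1 had signals of 3803, 3927, 2886, 1044 and 1636 on C arrays 1 to 5, against a lowest, median and highest of 56.9, 96.4 and 225 on the B arrays. Slc4a1, the anion exchanger of red cells, rose by 4.11 (limma adjusted p = 1.71e-06), and Alas2, of erythroid heme synthesis, by 3.02. Alas2 was 1.7 to 72.1 on the B arrays, and the C arrays alone admitted it to the test. The 1 that fell was Tfrc, at -0.80, with 4889 to 6357 in fraction C and 8403 to 11571 in fraction B. Its other probe sets, at 0.06 and -0.25, did not pass, nor did 8 of the 13 markers. Slc4a1 was 350 to 2674 in the common lymphoid progenitor, 26.6 to 2202 in fraction A, 718 to 1113 in D, 948 to 8842 in E and 678 to 1221 in F. Of 8 NK cell markers 5 rose (median 1.45, or 0.78 without C array 1; sums 2990 to 10800 in fraction C and 1590 to 2540 in fraction B). Gzma had signals of 3932, 1250.1, 342, 854 and 915 on C arrays 1 to 5, against a lowest, median and highest of 49, 302 and 616 on the B arrays. Gzma, a granule protease, rose by 2.08 (limma adjusted p = 0.0131), with C array 1 highest, and Klra8 by 2.42 (2.13 after quantile normalization). Klra8 was 2.4 to 14.6 on the B arrays, below the median of each, so the C arrays alone admitted it to the test.

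Of 11 plasmacytoid dendritic cell markers 5 rose (median 0.74; sums 8130 to 13300 in fraction C and 6890 to 8430 in fraction B), Siglech by 2.25, with 1659.9, 454, 184, 398 and 763 on C arrays 1 to 5. Of 10 plasma cell markers 5 rose (median 0.68, or 0.44 without B array 5 or C array 1; sums 16900 to 26900 in fraction C and 9100 to 15400 in fraction B). These included the syndecan Sdc1 (1.30) and Xbp1 (1.37; the mean of its probe sets was 0.96, adjusted p = 0.0548), the factor of the secretory program. Of 3 tested T cell markers 2 rose, Thy1 by 1.84 and Lat as above, with sums of 1500 to 2420 in fraction C and 649 to 1540 in fraction B; 10 and 6 of the 16 named were below the array median on every array of C and B. Of 2 megakaryocyte markers 1 rose, with sums of 608 to 1450 in fraction C and 408 to 1340 in fraction B. Of 8 basophil, mast cell and eosinophil markers 0 rose and 1 fell (12.5%, near the 11.5% of all genes), with a median of -1.0 (-0.57 without B array 5) and sums of 3540 to 10800 in fraction C and 8580 to 37400 in fraction B. The gene that fell was Prg2, the eosinophil major basic protein, with 5760.3, 4804, 2969.7, 1632 and 2484 on C arrays 1 to 5 against 5989 to 19331 on B arrays (-1.68, limma adjusted p = 0.00112). The 1 tested marker of stroma and endothelium did not pass. The part of such cells in any other difference was not tested.

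Immediate early genes, which cells switch on within minutes of a stimulus, fell. Of 16 tested, 0 rose and 7 fell, with a median of -0.46 (-0.47 for C replicates 1 and 2 and -0.58 for replicates 3 to 5), and 7 fell after quantile normalization, when the median was -0.72. Fos had signals of 1433, 655, 499.6, 372 and 585 on C arrays 1 to 5, against a lowest, median and highest of 1623, 5161 and 11089.5 on the B arrays. Fos, a component of AP-1, differed by -2.95 ± 0.38 (limma adjusted p = 7.52e-05; -2.99 after quantile normalization), the largest fall without overlap, and B array 2 was the lowest of fraction B. Its signal was 6345 to 8064 in fraction D and 1689 to 12656 in fraction A. Fosb had signals of 108, 11.3, 43.1, 47.3 and 26.4 on C arrays 1 to 5, against a lowest, median and highest of 38.4, 683 and 1601 on the B arrays. Fosb, its relative, was at -2.88 ± 0.60 (limma adjusted p = 0.00208), and B array 2 lay within the range of fraction C. Dusp1, a phosphatase of MAP kinases, was at -1.65 and Egr1, a zinc-finger factor, at -1.62. Such genes also respond to the handling of cells, on which the labels say nothing; its part was not tested.

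Among the 10 largest falls without overlap, several came from 1 probe set of a gene with others that did not pass. Kmt5a had signals of 574, 1002, 608, 309 and 415 on C arrays 1 to 5, against a lowest, median and highest of 2492, 3669 and 6719 on the B arrays. Kmt5a, which methylates histone H4, was at -2.75 ± 0.27 (limma adjusted p = 8.53e-06), but of its 4 tested probe sets 1 passed and the highest difference stood at 0.28. Ctr9 had signals of 546, 538, 535, 576 and 578 on C arrays 1 to 5, against a lowest, median and highest of 1303, 2156 and 3693 on the B arrays. Ctr9, of the Paf1 complex, was at -1.83 with 1 of 5 probe sets passing and a mean of -0.45, adjusted p = 0.0633. Grsf1, an RNA-binding protein of mitochondrial RNA granules, had 2337, 2265, 2549, 1914 and 1773 on C arrays 1 to 5 and 5727 to 12822 on B arrays (-1.96, limma adjusted p = 5.86e-06), and 2 of its 3 probe sets fell. Grwd1, a ribosome assembly factor, was at -2.25 with 2 of 3 probe sets falling. Txnrd3, a thioredoxin reductase, was at -2.14 and the noncoding Rab26os at -2.51. The other probe set of Txnrd3, at -0.37, did not pass (adjusted p = 0.281 in a limma test of each probe set). Ear3, an eosinophil-associated ribonuclease with near-identical relatives that can share its probes, was at -2.04, with 379, 524, 289.5, 167 and 249 on C arrays 1 to 5 and 529.9 to 2054 on B arrays.

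The genes with the widest gap between C replicates 1 and 2 and replicates 3 to 5 are given as a description, with no test of the gap. Igha, the constant region of IgA, had 21239, 6935, 1664, 784 and 2573 on C arrays 1 to 5 and 313 to 1139 on B arrays, and Jchain, which joins IgA and IgM into polymers, 6528, 1218, 703, 236 and 490.5 and 50.2 to 1478, so C array 1 was highest for both. Troap, a spindle protein, had 225, 183, 11.8, 9.4 and 16 on C arrays 1 to 5 and 48.6 to 174 on B arrays, which places C arrays 3 to 5 below every B array. The Y-linked Eif2s3y and Kdm5d were high on C array 2 alone, at 4440.3 and 1898. Higher in replicates 3 to 5 were Dpt, an extracellular matrix protein, with 211, 182, 1336, 1664 and 1409 on C arrays 1 to 5 and 4.7 to 101 on B arrays, and the homeobox gene Dlx1, with 120.0 to 875 on C arrays and 6.3 to 85.4 on B arrays. Igf1, a growth factor, had 170.3, 85.8, 535, 815 and 679 on C arrays 1 to 5 and 12.6 to 82.2 on B arrays, and Amotl1, an angiomotin relative, 102, 132, 615, 1312 and 397 and 8.2 to 129. All 4 rose over all C arrays, by 3.26, 2.62, 2.33 and 2.40, and Igha by 2.43, while Jchain and Troap did not pass. Dlx1, Igf1 and Amotl1 met the filter on the fewest arrays it allows, Dlx1 on the C arrays alone, so their rises depend on the filter. Xist was 80.8 on C array 2 and 8445 to 10819 on the others.

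Of 15 genes recurrently altered in hypodiploid acute lymphoblastic leukaemia, 2 rose and 2 fell, with a median of 0.23. That is 13.3% each way, near the 15.5% up and 11.5% down of all genes. Pax5 and Flt3 are described above. Ptpn11 had signals of 3060.4, 3449.7, 2632, 3119 and 2317 on C arrays 1 to 5, against a lowest, median and highest of 1215, 1787 and 2484 on the B arrays. Ptpn11, the phosphatase SHP2, rose by 0.75 (limma adjusted p = 0.0108), the C arrays overlapping the highest B array. Only 1 of its 3 probe sets passed, their mean was 0.17, adjusted p = 0.476, and the call ended in C replicates 1 and 2 alone (adjusted p = 0.0524) and in replicates 3 to 5 alone (adjusted p = 0.0532). Eed had signals of 4678, 4626, 3819, 4130.3 and 3482 on C arrays 1 to 5, against a lowest, median and highest of 6071, 7366 and 10483 on the B arrays. Eed, a subunit of Polycomb complex 2, was lower on every C array, at -0.89 ± 0.15 (limma adjusted p = 0.000408; -0.59 after quantile normalization), and the mean of all its probe sets was -0.41, adjusted p = 0.116. Its partner Ezh2 was at -0.29 (95% interval -0.55 to -0.02) and did not pass. Ikzf1 (0.30), Ikzf3 (0.51), Arid5b (0.49), Nf1 (0.44), Crebbp (0.28), Rb1 (0.23), Etv6 (0.17), Runx1 (0.08), Nras (0.02) and Pag1 (-0.21) did not pass on their brightest probe set. In a limma test of each probe set, 4 of 5 of Arid5b rose. Others also rose for Ikzf1 (1.08, adjusted p = 0.000508), Ikzf3 (1.74 and 1.33, adjusted p = 0.00422 and 0.0159) and Pag1 (1.03, adjusted p = 0.0139). No probe set of the rest passed. After quantile normalization the brightest probe sets of the lymphoid regulators Ikzf1 (0.68, adjusted p = 0.0016) and Ikzf3 (0.99, adjusted p = 0.0139) passed. Of 14 survival and death genes 2 rose (14.3%, near the 15.5% of all genes) and 0 fell. Birc3, an inhibitor of apoptosis, had 1510.2, 1410.2, 1581, 3218 and 2305 on C arrays 1 to 5 against 741 to 1307 on B arrays and rose by 0.97 (limma adjusted p = 0.00539).

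**Figure D5:**
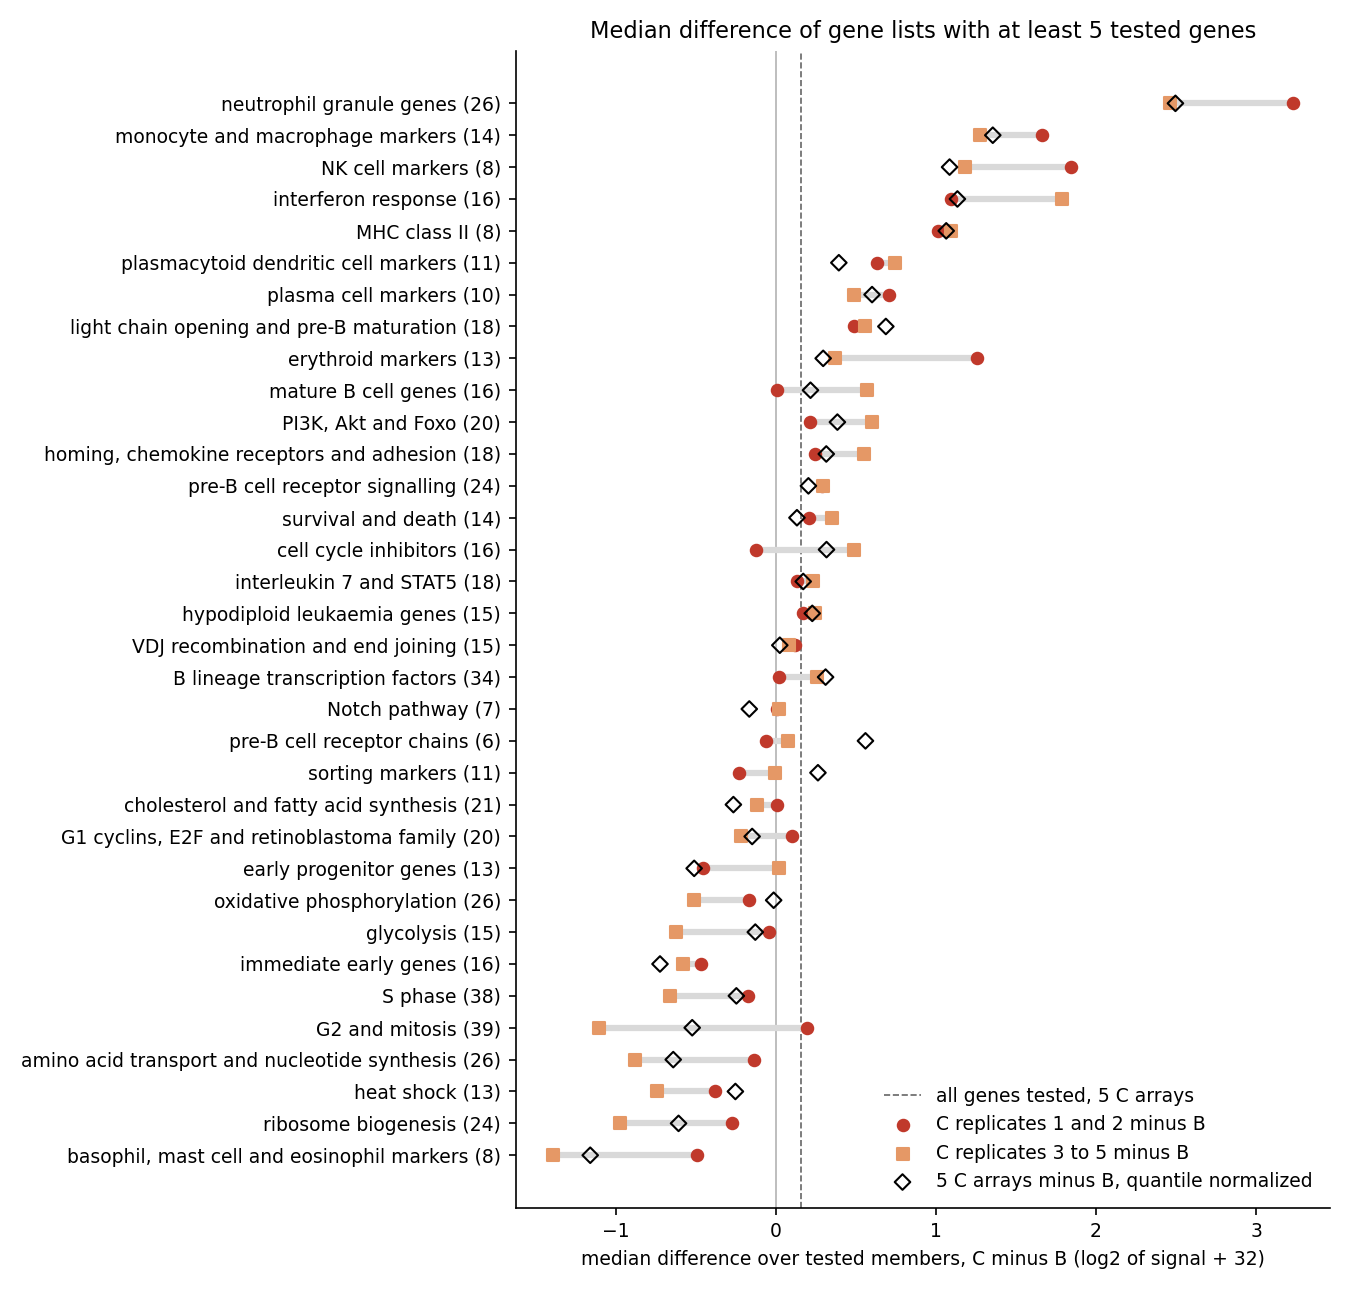
Median difference over the tested members of each gene list with at least 5 tested genes (log2, x axis; the number of genes in brackets) for C replicates 1 and 2 minus B (circles), C replicates 3 to 5 minus B (squares) and all 5 C arrays minus B after quantile normalization (diamonds). The dashed line is the median over all genes tested, 0.16; G2 and mitosis genes lie at 0.20 and -1.11 in the replicate sets.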

How the data were processed

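The authors deposited 1 intensity value per probe set and array, computed with MAS5 (per the submitters' processing notes; no version named). A genome build was not given in the sources used here. Arcturus PicoPure extraction and NuGEN Ovation Pico amplification preceded hybridisation, per the labels' protocols. Of 45101 probe sets, 64 were controls, 34945 had 1 gene in the annotation table, 932 several and 9160 were not listed. Of several probe sets the brightest over the series stood for a gene (18193 genes), and 10091 genes at or above their array's median on at least 5 of the 12 arrays were tested. The 5 C arrays alone could meet this, whereas from fraction B alone 5 of the 7 arrays had to. Replicate numbers and populations came from the titles, no 2 arrays were identical, and the highest correlation among the 12 was 0.982.

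Signals were taken as log2(signal + 32) and fitted with limma 3.58.1 (lmFit and contrasts.fit, then eBayes with a trend and robust priors; the data.table package 1.17.8 and statmod 1.5.0) in R 4.3.3, with Benjamini-Hochberg adjustment over all genes tested. The replicate sets of fraction C came from a fit with 3 means. The members, the 38 gene lists and the tests were chosen with earlier results of these data known, so lists are described by counts and medians with no test. Named genes are the 10 largest rises and falls without overlap, up to 4 called members a direction of each list, all tested sorting, receptor-chain and hypodiploid leukaemia genes, and the 5 widest gaps each way between the replicate sets; some whose call was lost without single arrays are left out. The method was tested on data simulated gene by gene with the spread of these arrays. It recovered 6 of 50 changes of 0.5 log2 units, 23 of 50 of 1 and 47 of 50 of 2. Of its 135 calls 9 were false (6.67%). Genes that did not pass may therefore still differ. Same-numbered C and B arrays did not deviate together (correlations of 0.05, 0.21, -0.19, -0.03 and 0.03), so the numbers were not used as pairs. Alternatives were the pseudocount (1 or 128), the filter (none or the 75th percentile), quantile normalization, centring, probe-set choices, the replicate block, a fit of all 41 arrays, plain eBayes, array weights and each array left out. The Y-linked level as a covariate was added after seeing the data.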

Additional observations from a re-analysis of the deposited data

Results flagged for a closer look

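In 24 of 416 checks of single genes and list means, 1 array stood apart from the rest of its population by a gap test that chance passes in about 1 of 20 groups. The flagged share was close to that rate, so the cases below are descriptions. In fraction C, array 2 had Eif2s3y at 4440, Kdm5d at 1898 and Xist at 80.8, opposite to the other 4 C arrays, whose Xist was at least 8445. C array 1 was high for Ccr9, at 508, for the mean level of the NK cell markers, 9.47 on the log2 scale, and for that of the plasma cell markers, 10.8. Mx1 stood at 446 on C array 4 and the mature B cell gene Cr2 at 102.3 on C array 3, the lowest of fraction C.

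In fraction B, array 5 was highest for the neutrophil gene Lcn2 (114), Slfn4 (124.5), the monocyte gene Clec4d (704) and Cdk6 (9978), and lowest for Ccr7 (5.1). B array 4 was highest for Dkc1 (18621) and the complement gene C1qb (521), and lowest for Flt3 (11.7) and Car2 (598). Its mean level of the cell cycle inhibitors was 10.7, of the hypodiploid leukaemia genes 10.5 and of the stromal and endothelial markers 10.3. B array 1 was lowest for Ear3 (530) and Alas2 (1.7), B array 7 for Hsp90aa1 (10918), and B array 2 for the mean level of the PI3K, Akt and Foxo genes (10.1).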

How the results depend on the processing

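Over all C arrays, 1566 genes rose and 1156 fell. C replicates 1 and 2 alone gave 328 and 351, and the 75th percentile filter gave 859 rises. Centring gave 895 and 1846 and averaging probe sets 690 falls. Testing each probe set gave 3148 and 1833, with 1068 calls for C replicates 1 and 2 and 4815 for replicates 3 to 5. More features were tested there, so these counts are not on the same base as those of genes. Array weights gave 2444 and 1880, with 1981 and 4782 for the replicate sets. The 679 calls for C replicates 1 and 2 became 439 with the replicate block, 1887 without B arrays 1 and 4 and 1139 with the Y-linked covariate. The median over all genes, 0.157, was 0.00567 under the 75th percentile filter, 0.00416 after quantile normalization, -0.068 after centring, 0.231 for probe-set means, 0.209 for each probe set, 0.103 with array weights and 0.104 without B arrays 1 and 4.

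With 1 array left out, rises ranged from 976 to 1715, falls from 862 to 1241, calls for C replicates 1 and 2 from 13 to 995 (the lowest with 1 C array left in the set, its spread taken from the other arrays), those for replicates 3 to 5 from 1416 to 3060 and the median from 0.135 to 0.173. Directions turned for the G2 and mitosis median (0.197 in C replicates 1 and 2) and the homing median (-0.121 under the 75th percentile filter). Under quantile normalization they turned for Spn (0.189), Dntt (0.0669), Myb (0.043), Pou2af1 (0.0191), Atp5a1 (0.0885) and Il7r (0.462). For the mean of the probe sets they turned for Ebf1 (0.376), Pim3 (0.0787), Hmgcs1 (0.00384), Itgal (0.297), Foxp1 (0.105) and Ighm (1.89). The causes were not tested. The replicate block gave 1311 rises and 1043 falls. Over all alternatives, named genes kept their direction and side of the threshold in 4005 of 4450 comparisons and lost the call in 353, in 10 of them with the direction turned. Genes near the array median are limited by background.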
